A study of Mus musculus with 18 samples.

Results

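The comparison described here is that of Nmnat1 knockdown cells with scramble cells from mouse retinal explants. Its members were chosen by column: of the 18 libraries of the series, the 3 scramble libraries (C1, C2 and C3) and the 3 Nmnat1 knockdown libraries (N1_1, N1_2 and N1_3) of the knockdown table were used, and the 3 remaining sample columns of that table were not. On postnatal day 0.5, retinas of outbred ICR mice were electroporated. The knockdown group received a plasmid that expresses a short hairpin RNA against Nmnat1 and the scramble group a plasmid with a scrambled hairpin, and both received an EGFP plasmid that marks the cells that took up DNA. The retinas were then kept as explants for 3 days, EGFP-positive cells were sorted by flow cytometry, and cDNA was made from 1 ng of their total RNA with SMART-Seq v4. The sorted cells are therefore those that took up plasmid, of whatever type, and not one cell type. The sources used here do not give the hairpin sequence, the number of hairpins or the number of animals behind a library, so loss of Nmnat1 and effects of the hairpin on other targets cannot be told apart.

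Nmnat1 encodes the nuclear member of a family of 3 enzymes that join nicotinamide mononucleotide to ATP to form NAD, and Nmnat2 and Nmnat3 encode the members found on Golgi and axonal vesicles and in mitochondria. NAD is the electron carrier of glycolysis and of the citric acid cycle, and it is also consumed by sirtuins and poly(ADP-ribose) polymerases. Mutations of NMNAT1 cause a form of Leber congenital amaurosis, an early blindness of the retina. The newborn mouse retina still holds dividing progenitors, which in the days after birth give rise mostly to rods and also to bipolar cells, late amacrine cells and Müller glia. Electroporation at this age labels progenitors and their progeny, whereas ganglion, horizontal and most cone cells are born before birth.

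Levels are given in parts per 1000000 (ppm) of the sum of a column, and log2 fold changes are knockdown minus scramble on the scale of log2(level + 1), given ± SE, which understates the change of low genes. Tests were made with limma over the 20933 genes that reached 1 ppm in at least 3 of the 6 libraries, adjusted by Benjamini-Hochberg over all of them, and a gene is said to have risen or fallen only where its adjusted p was under 0.05. The columns summed to between 17.6 and 29.6 times 1000000 deposited units with 25412 to 28953 genes above 0. The relative depth of the libraries was 0.756 to 1.27, and 1 ppm of a gene of 1 kb stood for about 12.7 to 20.9 reads. Across genes, Pearson's r between libraries of a group was 0.907 to 0.933 in scramble and 0.944 to 0.956 in knockdown cells. The first principal component (30.4% of the variance) put the scramble libraries at -63.3, -49.6 and -9.64 and the knockdown libraries between 33.5 and 48.1. Mitochondrially encoded genes took 4.67% of library C1 and between 2.29% and 2.79% of the other 5. The labels do not tell whether different animals or explants lie behind the 3 libraries of a group, and the p-values reflect a spread between libraries that may be technical.

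Nmnat1 mRNA was lower in each knockdown library than in any scramble library. Nmnat1 (gene identifier ENSMUSG00000028992.13, chromosome 4, 149467572 to 149485202, minus strand on GRCm38) stood at 19.1, 20.9 and 17 ppm in the scramble libraries and 7.37, 8.54 and 7.49 ppm in the knockdown libraries. The groups did not overlap, and the mean fell 2.44-fold, from 19 ± 1.99 to 7.80 ± 0.642 ppm (SD, n = 3 each), with a log2 fold change -1.18 ± 0.23, adjusted p = 0.0192 by limma. By an exact two-sided permutation test p was 0.1, the smallest that 3 libraries against 3 allow. The fold change stayed between -1.26 and -1.11 when each library was left out in turn, but the adjusted p rose to 0.0603 without C2 and to 0.0608, 0.0666 and 0.0731 without N1_1, N1_2 or N1_3. In bulk RNA of sorted cells, fewer cells of a type and less RNA per cell cannot be told apart, for this gene and for all that follow.

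Neither of the other family members passed the test. Nmnat2 was at 6.22, 0.624 and 2.03 ppm in the scramble libraries and 2.71, 1.49 and 1.86 ppm in the knockdown libraries, and Nmnat3 was at 1.43, 0 and 1.96 ppm in the scramble libraries and 1.01, 2.19 and 5.28 ppm in the knockdown libraries. The groups overlapped for both genes (log2 fold change -0.14 ± 0.57, adjusted p = 0.919, and log2 fold change 0.83 ± 0.59, adjusted p = 0.491; exact permutation p = 0.8 and 0.4). The libraries of a group were widely spread at these levels, and a small change of either gene could not have been detected.

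Of the 20933 genes tested, 1029 (4.92%) passed, 572 (2.73%) higher and 457 (2.18%) lower in knockdown cells. The median log2 fold change over all genes tested was 0.00. The genes that fell were shifted further than those that rose, with a median of -0.92 against 0.71 and with 192 against 146 genes past a 2-fold change. For 5394 genes (25.8% of those tested) the 2 groups did not overlap, and 4228 genes had an unadjusted p under 0.05. The shares of 2.73% and 2.18% are the background of each gene list below, also where they are not repeated. They cover pseudogenes and rare genes as well. Among coding genes at 5 ppm or more, 1.76% to 5.11% rose and 1.70% to 8.64% fell, depending on transcript length. The lists were chosen with earlier results of these data known, so their counts beside these shares are descriptive.

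The number of calls depended on the fit and on which libraries entered it. Limma's mean-variance trend, which lets abundant genes have a smaller expected spread than rare ones, was part of the fit. Without the trend 4 genes passed, among them Calb2 and Gal. In that fit 1009 of the 1029 (98.1%) had an unadjusted p under 0.05 by limma, among 3656 of all 20933 genes. The 1029 were selected for a small p in these same values, so their high share is no separate support. With each library left out in turn between 338 (without N1_3) and 975 (without C1) genes passed, with 683 without C2, 544 without N1_1 and 340 without N1_2. Of the 1029 genes, 275 passed in each of the 6 fits with a library left out, 129 higher and 146 lower. The genes named below that are among these 275 are said to hold in all 6. Of the 23 gene lists with 1 to 3 genes past the threshold, 11 had none in at least 1 of these fits.

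**Figure D1:**
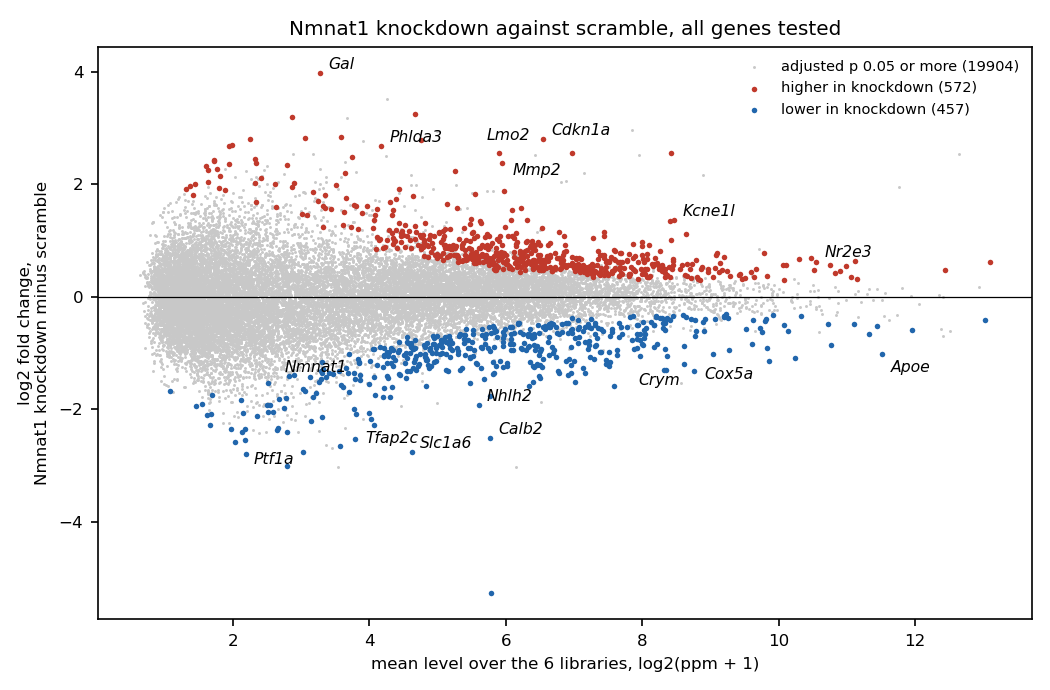
Log2 fold change of Nmnat1 knockdown minus scramble (vertical axis) against the mean level over the 6 libraries as log2(ppm + 1) (horizontal axis) for the 20933 genes tested, 1 point a gene, with the 572 higher genes in red, the 457 lower genes in blue and the others in grey. Gal, Phlda3, Cdkn1a, Lmo2 and Mmp2 stand at the top and Ptf1a, Slc1a6, Tfap2c and Calb2 among the lowest, and the fold needed to pass shrinks as the level grows.

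The genes that fell were shorter than those that rose. Among protein-coding genes the median longest annotated transcript was 2250 bases for the genes that fell, 3561 for those that rose and 3261 for all tested. In coding genes at 5 ppm or more, 8.64% of the 567 with transcripts under 1 kb fell and 1.76% rose. Of the 4412 with transcripts of 4 kb or more, 1.70% fell and 4.92% rose, and the median log2 fold change went from -0.13 in the first class to 0.08 in the last. Pseudogenes, which share reads with their parent genes, made up 7.17% of the genes that rose, 16.2% of those that fell and 22.9% of those tested. The part of transcript length in single results was not tested. For several gene groups below that hold many short genes, the count among members of at least 2 kb is given as well. Of all tested genes, 12414 reached 2 kb, of which 451 rose and 234 fell.

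**Figure D2:**
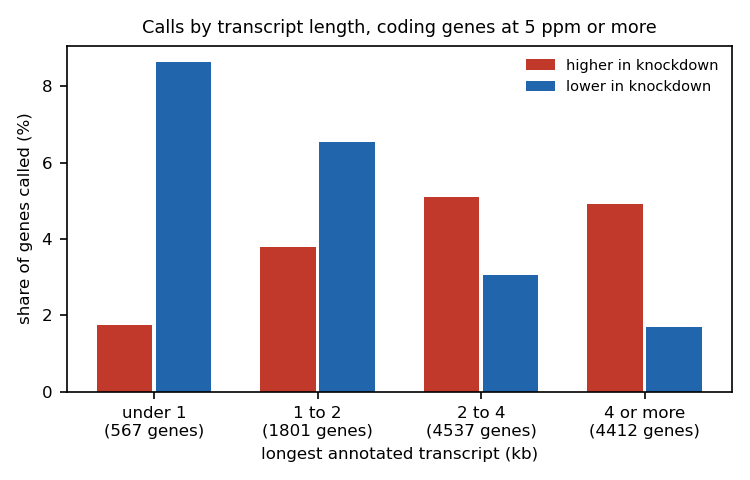
Share of coding genes at 5 ppm or more that were called higher (red) or lower (blue) in knockdown cells (vertical axis, %), by the length of the longest annotated transcript (horizontal axis, kb, with the number of genes). The share that fell is 8.64% under 1 kb and 1.70% at 4 kb or more, while the share that rose is 1.76% and 4.92%.

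p53 target genes rose more often than they fell. Of 28 tested members of a list of genes that the tumour suppressor p53 is known to activate, 7 rose and 1 fell, with a median log2 fold change of 0.33, beside 2.73% and 2.18% of all genes and a median of 0.00. Cdkn1a (ENSMUSG00000023067.13, chromosome 17, 29090976 to 29100727, plus strand), which encodes the cyclin-dependent kinase inhibitor p21, was at 28.8, 23.6 and 16 ppm in the scramble libraries and 147, 163 and 176 ppm in the knockdown libraries, a 7.10-fold difference of means (log2 fold change 2.81 ± 0.20, adjusted p = 0.00031). Phlda3, which encodes a p53-induced repressor of Akt signalling, was at 5.47, 2.25 and 4.16 ppm in the scramble libraries and 36, 29.6 and 24.2 ppm in the knockdown libraries (2.68 ± 0.31, adjusted p = 0.00228). The lowest knockdown library was 5.09-fold above the highest scramble library for Cdkn1a and 4.43-fold for Phlda3, and both genes hold in all 6.

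The other 5 members that rose moved by less. Xpc, a sensor of damaged DNA, went from 16, 19.8 and 17.7 ppm to 35.4, 32.1 and 35.4 ppm (0.91 ± 0.17, adjusted p = 0.0159), and Ccng1, which encodes cyclin G1, from 15.9, 25.6 and 21.1 ppm to 37.3, 40.3 and 36.6 ppm (0.86 ± 0.19, adjusted p = 0.0368). Aen, an exonuclease gene of the p53 response, went from 60.1, 50.5 and 50.8 ppm to 74.3, 77.3 and 81.9 ppm (0.53 ± 0.12, adjusted p = 0.0393), and the antiproliferative gene Btg2 from 402, 408 and 395 ppm to 509, 491 and 504 ppm (0.32 ± 0.07, adjusted p = 0.03). Bax, which encodes the pore-forming protein of the apoptotic mitochondrial pathway, was the nearest to the threshold, from 236, 236 and 234 ppm to 309, 275 and 316 ppm (0.34 ± 0.08, adjusted p = 0.0495). In these 5 genes as well, each knockdown library lay above each scramble library.

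Not all of the list moved. Plk2, a Polo-like kinase gene, fell from 44.9, 42 and 33 ppm to 19.8, 19.5 and 22.6 ppm (-0.91 ± 0.17, adjusted p = 0.0189). Mdm2, the p53 ligase (log2 0.35, adjusted p = 0.37), Bbc3, which encodes PUMA (log2 0.66, adjusted p = 0.166), and Sesn1 (log2 0.32, adjusted p = 0.169) did not pass, nor did Trp53 itself, which is not on the list (log2 0.14, adjusted p = 0.55). The summed level of the list was 1203 to 1300 ppm in scramble and 1661 to 1762 ppm in knockdown libraries. With a library left out, 2 members rose without N1_1, N1_2 or N1_3, and 3 without C3, 4 without C2 and 5 without C1.

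Among 25 genes of the Bcl2 family and the caspases, 2 rose, Bok and Bax, and 1 fell, Casp6, with a median of 0.08. Over all genes, 2.73% rose and 2.18% fell. Bok, a relative of Bax, went from 6.49, 6.72 and 4.57 ppm to 18.6, 19.2 and 22.5 ppm (1.62 ± 0.25, adjusted p = 0.00856), and Casp6, an effector caspase gene, from 39.3, 25.6 and 26.7 ppm to 10, 13.6 and 9.07 ppm (-1.40 ± 0.24, adjusted p = 0.0126). The knockdown libraries lay wholly above the scramble libraries for Bok and wholly below for Casp6. At shares near those of all genes, 1 of 27 genes of DNA damage signalling and repair rose and 1 fell. The latter was Brca2, a homologous recombination gene, which went from 103, 101 and 106 ppm to 58.2, 61.3 and 66.9 ppm (-0.73 ± 0.11, adjusted p = 0.00638). The directions within these groups were mixed.

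Most genes of mitosis had negative fold changes, though few passed singly. Of 39 tested genes of the G2 and M phases, 33 had a negative fold change, 3 fell and none rose, with a median of -0.49. Over all 20933 genes, 10467 had a negative fold change and 2.18% fell. Cdc25b, the phosphatase gene that triggers entry into mitosis, was at 19.4, 23 and 14.5 ppm in the scramble libraries and 3.94, 5.90 and 5.46 ppm in the knockdown libraries (log2 fold change -1.70 ± 0.28, adjusted p = 0.0114). Kif23, a kinesin gene of cytokinesis, was at 11.9, 6.39 and 6.35 ppm in the scramble libraries and 1.83, 0.830 and 0.871 ppm in the knockdown libraries (-2.06 ± 0.41, adjusted p = 0.0242), and the kinetochore gene Nuf2 at 7.53, 4.28 and 5.54 ppm in the scramble libraries and 0.551, 1.48 and 0.699 ppm in the knockdown libraries (-1.83 ± 0.41, adjusted p = 0.038). The nearest libraries of the 2 groups differed 2.46-fold for Cdc25b, 3.47-fold for Kif23 and 2.89-fold for Nuf2, and Cdc25b holds in all 6. The summed level of the list was 312 to 346 ppm in scramble and 189 to 219 ppm in knockdown libraries. Mki67 (log2 -0.84, adjusted p = 0.352), Ccnb1 (log2 -1.33, adjusted p = 0.238), Cdk1 (log2 -0.90, adjusted p = 0.145) and Top2a (log2 -0.16, adjusted p = 0.812), widely used markers of dividing cells, did not pass, with group means of 1.22 to 12.4 ppm. Without N1_2, N1_3 or C1 only 1 member fell.

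Genes of G1 passed more often than genes of S phase. None of 38 genes of DNA replication passed by limma, with 3 higher and 5 lower at an unadjusted p under 0.05. The median was -0.10. With a filter of 5 ppm 2 fell, with array weights 2 fell, and without C1 1 rose and 1 fell. Of 24 cyclins, E2F factors and kinase inhibitors of G1, Cdkn1a rose and 3 fell, beside 2.73% of all genes higher and 2.18% lower. Ccnd3, which encodes cyclin D3, was at 80.2, 91.2 and 98.2 ppm in the scramble libraries and 35.5, 37.7 and 39.4 ppm in the knockdown libraries (-1.24 ± 0.13, adjusted p = 0.00116). Cdkn1c, which encodes the kinase inhibitor p57, fell from 71.2, 82 and 92.1 ppm to 33.5, 44.2 and 32.1 ppm (-1.15 ± 0.16, adjusted p = 0.00505), so the inhibitors p21 and p57 moved in opposite directions. Cdk4 fell by a smaller amount, from 628, 659.9 and 692 ppm to 525, 561 and 513 ppm (-0.31 ± 0.07, adjusted p = 0.0483).

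Outside Nmnat1, few genes of NAD metabolism passed. Of 17 tested genes of NAD synthesis and salvage, Pnp rose and Nmnat1 and Nt5e fell, with a median of 0.24. Nampt, which is also on the list, had no values here and could not be tested. Over all genes, 2.73% rose and 2.18% fell. Pnp encodes purine nucleoside phosphorylase, which also splits nicotinamide riboside, and was at 191, 200.1 and 202 ppm in the scramble libraries and 333, 347 and 326 ppm in the knockdown libraries (0.76 ± 0.08, adjusted p = 0.00116), with 326 ppm in the lowest knockdown library against 202 in the highest scramble library. It holds in all 6. Nt5e, which encodes the ecto-nucleotidase CD73, went from 129, 104 and 105 ppm to 74.1, 72.2 and 79.6 ppm (-0.57 ± 0.12, adjusted p = 0.0266). The NAD kinase gene Nadk (log2 0.43, adjusted p = 0.206), the nicotinamide riboside kinase gene Nmrk1 (log2 -0.16, adjusted p = 0.794), Nadsyn1 (log2 0.38, adjusted p = 0.598) and Slc25a51, which encodes the mitochondrial NAD carrier (log2 0.24, adjusted p = 0.612), did not pass.

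None of 24 genes of NAD-consuming enzymes passed by limma, nor did any with a single library left out. At an unadjusted p under 0.05, 5 were higher and 1 lower, and the median was 0.13. Parp1 was at 93.2, 78.7 and 80 ppm in the scramble libraries and 99.2, 109 and 96.4 ppm in the knockdown libraries (0.27 ± 0.11, adjusted p = 0.211). Its groups did not overlap, yet the difference did not pass. Sarm1, the axonal NAD hydrolase gene, was at 29.2, 33.8 and 31.6 ppm in the scramble libraries and 23.3, 38.4 and 34.6 ppm in the knockdown libraries (-0.00 ± 0.20, adjusted p = 0.992), and Sirt1 had log2 -0.11, adjusted p = 0.797.

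Some transcripts of amacrine cells, the inhibitory interneurons of the inner retina, fell strongly. Of 25 tested genes, 7 fell and none rose, 23 had a negative fold change and the median was -0.87, beside 2.18% of all genes lower. Calb2 (ENSMUSG00000003657.9, chromosome 8, 110137502 to 110168210, minus strand), which encodes the calcium-binding protein calretinin, was at 96.9, 93.7 and 83.5 ppm in the scramble libraries and 15, 16.2 and 14.3 ppm in the knockdown libraries, a 6.02-fold difference (log2 fold change -2.51 ± 0.14, adjusted p = 0.000233). It was called in each alternative fit, the one without the trend included (adjusted p = 0.0286).

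Transcription factor genes that specify this fate were among the genes that fell. Ptf1a, the bHLH factor gene required for amacrine and horizontal cells, was at 14.6, 15.9 and 8.90 ppm in the scramble libraries and 1.10, 2.20 and 0.261 ppm in the knockdown libraries (-2.76 ± 0.44, adjusted p = 0.00991). Tfap2c, an AP-2 factor gene, was at 18.5, 22.8 and 26.5 ppm in the scramble libraries and 2.18, 3.96 and 3.19 ppm in the knockdown libraries (-2.53 ± 0.30, adjusted p = 0.00228), and Prdm13, which acts with Ptf1a, was at 81.3, 83.5 and 83.3 ppm in the scramble libraries and 21.3, 19.8 and 31.3 ppm in the knockdown libraries (-1.77 ± 0.18, adjusted p = 0.00108). The lowest scramble library exceeded the highest knockdown library 4.04-fold for Ptf1a, 4.67-fold for Tfap2c and 2.60-fold for Prdm13.

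The remaining members that fell had the same separation of the groups. Nhlh2, a bHLH factor gene, was at 73.7, 78.5 and 75 ppm in the scramble libraries and 19.2, 17.8 and 20.9 ppm in the knockdown libraries (-1.92 ± 0.13, adjusted p = 0.00031), and the AP-2 factor gene Tfap2b, which horizontal cells also express, at 16.9, 24.5 and 19.8 ppm in the scramble libraries and 6.61, 5.38 and 8.06 ppm in the knockdown libraries (-1.48 ± 0.26, adjusted p = 0.0133). Pax6, a homeobox gene of progenitors as well as amacrine cells, was at 126, 141 and 119 ppm in the scramble libraries and 49.4, 54.4 and 39.6 ppm in the knockdown libraries (-1.42 ± 0.14, adjusted p = 0.00101). All but Tfap2b hold in all 6, and 6 or 7 members fell with each library left out. The list summed to 666 to 702 ppm in scramble and 338 to 372 ppm in knockdown libraries. Its median, which includes many genes near 1 ppm, was -1.42 with a filter of 5 ppm, -1.30 with a pseudocount of 0.1 and -0.36 with a pseudocount of 5. It lay below the median of the Müller glia list in most fits, but above it with a pseudocount of 5 (-0.36 against -0.64), quantile normalization (-0.76 against -0.79), array weights (-0.75 against -0.77) and without N1_1 (-0.75 against -0.85).

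Other members of the amacrine list did not pass the test. The GABA synthesis genes Gad1 (log2 -0.17, adjusted p = 0.875) and Gad2 (log2 -0.28, adjusted p = 0.457), the vesicular inhibitory transporter gene Slc32a1 (log2 -0.87, adjusted p = 0.27) and the glycine transporter gene Slc6a9 (log2 0.33, adjusted p = 0.186) are examples. Gad1, Slc32a1 and the starburst amacrine marker Chat (log2 -0.37, adjusted p = 0.743) were below 7 ppm in all libraries. Slc6a9 was the member with the largest positive value. Among 37 receptor genes for glutamate, GABA and glycine, 4 fell and 2 rose, beside 2.18% of all genes lower and 2.73% higher. The glycine receptor gene Glra2 went from 12.9, 10.8 and 7.96 ppm to 0.274, 1.84 and 1.77 ppm (-2.40 ± 0.44, adjusted p = 0.0156), and the AMPA receptor gene Gria4 from 24, 27.5 and 23.9 ppm to 7.32, 5.45 and 7.61 ppm (-1.75 ± 0.23, adjusted p = 0.00348). Both hold in all 6. Grik2 (log2 -1.12, adjusted p = 0.0248) also fell, whereas Gabbr2 (log2 1.69, adjusted p = 0.0115) and Grik3 (log2 1.04, adjusted p = 0.0385) rose. With N1_2 or N1_3 left out, 2 receptor genes fell and none rose.

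**Figure D3:**
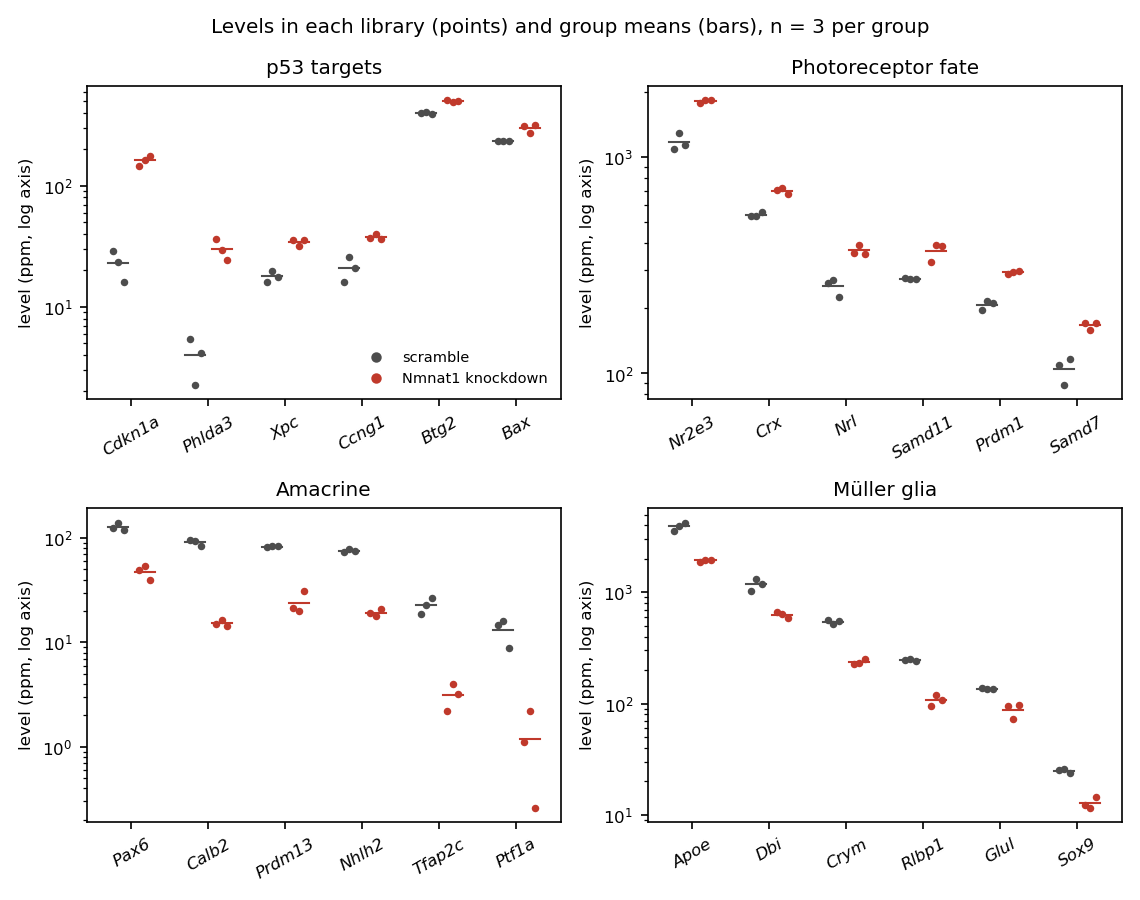
Level in each library (points, ppm on a log axis) and group mean (bar) of 24 genes in 4 groups, 6 each, for scramble (grey) and Nmnat1 knockdown (red), n = 3 per group. Knockdown points lie above the scramble points for the p53 target and photoreceptor fate genes and below them for the amacrine and Müller glia genes, without overlap in any of the 24. All 24 were chosen from members that passed the test, so this separation follows from the choice. Of all genes tested, 25.8% had no overlap.

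Müller glia are the main glial cells of the retina and the last cell type to be born. Of 22 tested Müller genes, 10 fell and none rose, with a median of -0.76, beside 2.18% of all genes lower. Apoe (ENSMUSG00000002985.16, chromosome 7, 19696109 to 19699188, minus strand), which encodes the lipid carrier apolipoprotein E, was the most abundant of them at 3531, 3972 and 4227 ppm in the scramble libraries and 1869, 1961 and 1969 ppm in the knockdown libraries (log2 fold change -1.01 ± 0.08, adjusted p = 0.000376). Rlbp1, which encodes the retinaldehyde-binding protein CRALBP, was at 246, 250.0 and 239 ppm in the scramble libraries and 95.4, 119 and 107 ppm in the knockdown libraries (-1.19 ± 0.10, adjusted p = 0.000661). Crym, which encodes the thyroid hormone-binding protein mu-crystallin, was at 568, 516 and 549.6 ppm in the scramble libraries and 229, 229.8 and 249 ppm in the knockdown libraries (-1.20 ± 0.08, adjusted p = 0.00031). The nearest libraries of the 2 groups differed 1.79-fold for Apoe, 2.01-fold for Rlbp1 and 2.07-fold for Crym.

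Car14, a carbonic anhydrase gene, went from 63.1, 53.6 and 51.4 ppm to 18.3, 19.5 and 30 ppm (-1.30 ± 0.20, adjusted p = 0.00853), Dbi, which encodes acyl-CoA-binding protein, from 1034, 1323 and 1196 ppm to 658, 636 and 586 ppm (-0.91 ± 0.10, adjusted p = 0.00151), and the prostaglandin D synthase gene Ptgds from 96.3, 101 and 96.2 ppm to 47.2, 54.4 and 50.7 ppm (-0.93 ± 0.11, adjusted p = 0.00231). These 6 genes hold in all 6. Glul, which encodes glutamine synthetase, the enzyme that clears glutamate in these cells, was at 138, 135 and 134 ppm in the scramble libraries and 95.5, 72.5 and 96 ppm in the knockdown libraries (-0.63 ± 0.12, adjusted p = 0.022). Gpr37 (log2 -0.80, adjusted p = 0.0242), the gliogenic factor gene Sox9 (log2 -0.92, adjusted p = 0.0267) and Cp, which encodes ceruloplasmin (log2 -0.67, adjusted p = 0.0305), fell as well.

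The glutamate transporter gene Slc1a3 (log2 -0.53, adjusted p = 0.0658), the intermediate filament gene Vim (log2 -0.65, adjusted p = 0.0629) and the potassium channel gene Kcnj10 (log2 -1.43, adjusted p = 0.0566) were lower in all knockdown libraries but missed the threshold, and Clu had log2 0.23, adjusted p = 0.494. The list summed to 6820 to 7640 ppm in scramble and 3926 to 3959 ppm in knockdown libraries. Among its 13 members of at least 2 kb, 6 fell and the median was -0.67. Without C3, N1_2 or N1_3, 6 members fell. The list of astrocyte genes, another glial type, had 1 of 8 genes lower, Cxcl14 (log2 -1.61, adjusted p = 0.0105), and Gfap was at 1.16 to 3.65 ppm in all libraries.

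Some progenitor genes fell as well. Of 24 tested, 7 fell and 1 rose, with a median of -0.66, beside 2.18% of all genes lower and 2.73% higher. Hes5, a Notch effector gene of progenitors and Müller glia, was at 175, 160.3 and 182 ppm in the scramble libraries and 70.7, 70.8 and 78.5 ppm in the knockdown libraries (log2 fold change -1.22 ± 0.10, adjusted p = 0.000621), and Sox8 at 41, 52.2 and 43.7 ppm in the scramble libraries and 20.7, 22.8 and 22.1 ppm in the knockdown libraries (-1.02 ± 0.16, adjusted p = 0.00795). The groups were separate in both.

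Id3, an inhibitor of bHLH factors, went from 57.6, 72.7 and 66.9 ppm to 36.7, 34.8 and 36.7 ppm (-0.84 ± 0.13, adjusted p = 0.00901), and Six6, an eye field homeobox gene, from 61.7, 62 and 64 ppm to 41.6, 45.1 and 41.9 ppm (-0.54 ± 0.12, adjusted p = 0.0325). Pax6 and Sox9, given above, fell as well. Meis2 was the member that rose, from 96.4, 84.8 and 94.3 ppm to 132, 139 and 122 ppm (0.51 ± 0.10, adjusted p = 0.0242). Rax, the most abundant homeobox gene of the list, was at 617, 547 and 688 ppm in the scramble libraries and 599.7, 727 and 688 ppm in the knockdown libraries (0.12 ± 0.10, adjusted p = 0.575), with overlap, and Ccnd1, which encodes the main cyclin D of retinal progenitors, missed the threshold (log2 -0.85, adjusted p = 0.0804). The list summed to 965 to 986 ppm in scramble and 636 to 671 ppm in knockdown libraries. With each library left out 5 members fell.

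In the Notch pathway list 2 of 25 genes fell, Hes5 and the glycosyltransferase gene Mfng (log2 -0.67, adjusted p = 0.0108), and none rose. Of 15 genes of neurogenic precursors, 2 rose and 2 fell. Insm1, a zinc finger gene of cells that leave the cycle to differentiate, was at 60.6, 63.7 and 76.7 ppm in the scramble libraries and 109.5, 129 and 145 ppm in the knockdown libraries (0.92 ± 0.14, adjusted p = 0.00742), higher in each knockdown library. Neurod4, a bHLH gene of differentiating neurons, fell from 1428, 1432 and 1421 ppm to 1175, 1072 and 1134 ppm (-0.34 ± 0.06, adjusted p = 0.0191). Progenitor and precursor genes thus did not all move one way.

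Some of the genes that set photoreceptor fate rose. Of 13 tested, 6 rose, none fell and 7 did not pass, with a median of 0.37, beside 2.73% of all genes higher. Nr2e3 (ENSMUSG00000032292.8, chromosome 9, 59942771 to 59960659, minus strand), a rod nuclear receptor gene that represses cone genes, was at 1097, 1300.1 and 1143 ppm in the scramble libraries and 1781, 1836 and 1835 ppm in the knockdown libraries (log2 fold change 0.63 ± 0.08, adjusted p = 0.00286), and it holds in all 6. Nrl, the leucine zipper gene that directs rod fate, was at 263, 269.9 and 225 ppm in the scramble libraries and 362, 394 and 358 ppm in the knockdown libraries (0.56 ± 0.09, adjusted p = 0.0115), and Crx, the homeobox gene that switches on photoreceptor genes, at 533, 533 and 556 ppm in the scramble libraries and 708, 718 and 678 ppm in the knockdown libraries (0.37 ± 0.07, adjusted p = 0.015). Each knockdown library exceeded each scramble library, by less than 2-fold in each gene.

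Prdm1, which biases precursors towards photoreceptors over bipolar cells, went from 196, 217 and 212 ppm to 289, 294 and 298 ppm (0.49 ± 0.08, adjusted p = 0.0101). Samd7 from 109, 88.3 and 117 ppm to 171, 158 and 172 ppm (0.67 ± 0.12, adjusted p = 0.0139) and Samd11 from 275, 274 and 273 ppm to 329, 391 and 389 ppm (0.43 ± 0.09, adjusted p = 0.0271), which encode Polycomb-associated repressors in rods, completed the 6. Otx2, which acts above Crx, was at 1892, 1809 and 1737 ppm in the scramble libraries and 2041, 1918 and 1851 ppm in the knockdown libraries (0.10 ± 0.07, adjusted p = 0.494), with overlap, and Rorb (log2 -0.01, adjusted p = 0.971) and Neurod1 (log2 -0.12, adjusted p = 0.487) did not pass. The list summed to 5699 to 5960 ppm in scramble and 6944 to 7165 ppm in knockdown libraries. Without N1_2 only 1 member rose and without N1_3 only 2, while 5 or 6 rose without any other library.

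The promoters of 3 of these 6 genes hold the site that CRX itself binds. The site of the CRX and OTX2 homeodomains, TAATCC on either strand (GGATTA when read on the other), was searched in the 250 bases upstream of the RefSeq start of the genes that had a promoter window, 11629 of the 20933 tested. It was present in 6.83% of these, in 30 of 395 (7.59%) of all genes that rose and in 6 of 13 genes of this list (Otx2, Crx, Thrb, Samd7, Samd11 and Casz1). The 3 that rose are Crx, Samd7 and Samd11, and their stretches are shown because they are the members with both the site and a change. The sequences are from RefSeq on GRCm38.p6, each read 5′ to 3′ on the strand of the gene, with the site in capitals. The Crx stretch is chr7:15879969-15880079 (minus strand) with sites 94 and 21 bases upstream of the start, and the Samd7 stretch is chr3:30746124-30746193 (plus strand) with a site 139 bases upstream. The Samd11 stretches are chr4:156255518-156255547 and chr4:156255392-156255421 (minus strand), with sites 193 and 67 bases upstream. A match is a description of these letters and not a measured binding site.
Crx promoter: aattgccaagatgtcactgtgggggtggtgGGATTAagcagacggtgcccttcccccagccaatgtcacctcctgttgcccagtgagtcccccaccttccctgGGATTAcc
Samd7 promoter: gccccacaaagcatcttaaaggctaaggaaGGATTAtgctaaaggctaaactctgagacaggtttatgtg
Samd11 distal site: tctcacgccgatTAATCCtataaagtactt
Samd11 proximal site: ggtgccagccctGGATTAgcccggctccag

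Genes of rod function did not follow as a group. Of 33 tested rod genes, 4 rose (Nr2e3, Nrl, Cdhr1 and Impg2) and 2 fell, with a median of 0.04. Over all genes, 2.73% rose and 2.18% fell. Cdhr1, a cadherin gene of the outer segment base, was at 292, 340.1 and 402 ppm in the scramble libraries and 517, 565 and 536 ppm in the knockdown libraries (0.66 ± 0.11, adjusted p = 0.0124), and Impg2, a proteoglycan gene of the matrix around photoreceptors, went from 108, 92.4 and 116 ppm to 151, 166 and 159 ppm (0.59 ± 0.11, adjusted p = 0.0167). Pde6g, a subunit gene of the rod phosphodiesterase, fell from 1181, 912 and 956 ppm to 714, 774 and 771 ppm (-0.42 ± 0.10, adjusted p = 0.0447), without overlap. Without N1_2 only 1 rod gene rose and without N1_3 only 2, and none fell without C3 or any one knockdown library. Of 14 cone genes, 1 fell, Opn1sw, the short-wave cone opsin gene, from 132, 131 and 154 ppm to 103, 97.5 and 100.3 ppm (-0.46 ± 0.10, adjusted p = 0.0346). The median of the cone list was -0.12 and turned to 0.10 with a filter of 5 ppm.

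Other neuronal lists had at most 1 gene past the threshold. Among 17 bipolar genes Tmem215 rose (log2 0.60, adjusted p = 0.021), with a median of -0.12. Among 18 retinal ganglion genes Stmn2, a gene of growing axons, fell (log2 -1.14, adjusted p = 0.0274), with a median of -0.12, and Pou4f1, Rbpms and Slc17a6, which define these cells, had means of at most 4.28 ppm. Among 7 horizontal cell genes Tfap2b fell, and Onecut1 (log2 0.37, adjusted p = 0.684), Onecut2 (log2 -0.03, adjusted p = 0.975) and Calb1 (log2 0.20, adjusted p = 0.83) had means under 3 ppm.

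Markers of non-neural cells were low in both groups. Of 11 microglia genes none passed by limma, and 3 were higher at an unadjusted p under 0.05. With array weights 1 rose, and 1 rose without C2. The microglia list had a median of 0.36 and summed to 29.6 to 44.8 ppm in scramble and 46.8 to 62.6 ppm in knockdown libraries. None of 13 endothelial and mural genes passed by limma either, with 2 lower at an unadjusted p under 0.05, and they summed to 89.1 to 90.7 and 59.0 to 76.9 ppm. Pigment epithelium genes summed to 53.1 to 62.2 and 75.6 to 87.1 ppm, and of 6 tested, Tyrp1, a melanin synthesis gene, rose from 9.15, 5.48 and 8.91 ppm to 23.9, 21.8 and 28.1 ppm (1.55 ± 0.25, adjusted p = 0.0104), while Rpe65 was at 3.51 ppm or less in all libraries. The part of these cells in other results was not tested.

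The libraries also differed in genes of the Y chromosome. Eif2s3y was at 36.1, 35.4 and 26 ppm in the scramble libraries and 79.3, 71.8 and 62.9 ppm in the knockdown libraries (1.12 ± 0.16, adjusted p = 0.00652), and Ddx3y at 11.8, 17 and 12.3 ppm in the scramble libraries and 33.8, 32.6 and 29.3 ppm in the knockdown libraries (1.18 ± 0.20, adjusted p = 0.0118). Both have X-linked homologs with which reads may be shared. Uty (log2 0.49, adjusted p = 0.215) and Kdm5d (log2 0.03, adjusted p = 0.941) did not pass and their groups overlapped. The sources used here do not give the sex of the animals, and its part in the other differences was not tested.

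**Figure D4:**
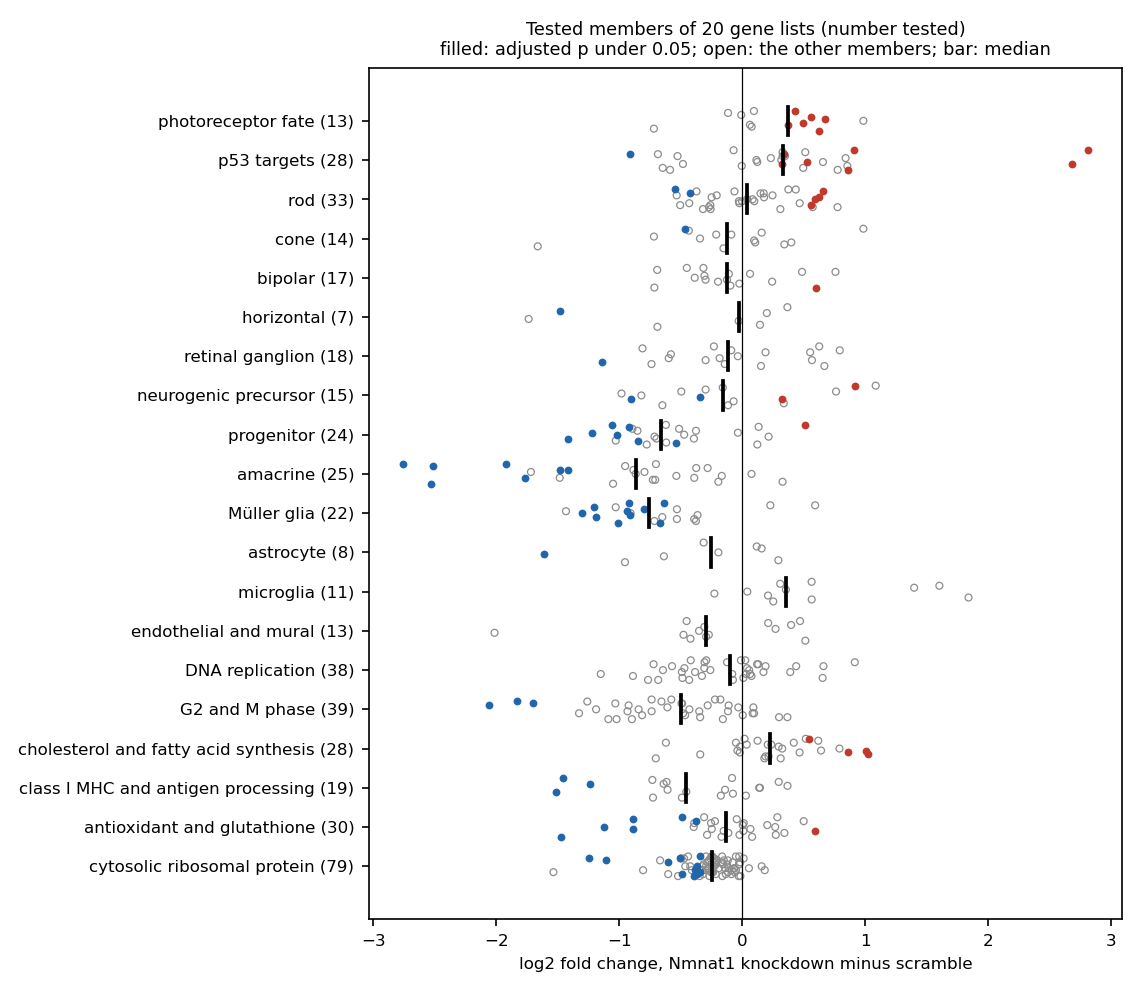
Log2 fold change of Nmnat1 knockdown minus scramble (horizontal axis) for every tested member of 20 gene lists (rows, number tested in brackets), 1 point a gene, red or blue where the adjusted p was under 0.05, open otherwise, with the median as a bar. The medians of the amacrine, Müller glia and progenitor lists lie at -0.87, -0.76 and -0.66, those of the p53 target and photoreceptor fate lists at 0.33 and 0.37, and that of the rod list at 0.04.

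Enzymes of energy metabolism moved gene by gene and not as pathways. Over all genes, 2.73% rose and 2.18% fell. Of 22 glycolysis and lactate genes, Ldha and Pkm rose and Gapdh fell, with a median of -0.03. Ldha, which encodes the lactate dehydrogenase subunit that regenerates NAD from NADH, was the most abundant at 6489, 6886 and 7191 ppm in the scramble libraries and 10383, 10399 and 10933 ppm in the knockdown libraries (log2 fold change 0.63 ± 0.06, adjusted p = 0.00116). Pkm, the pyruvate kinase gene, went from 1743, 1939.7 and 1975 ppm to 2274, 2479 and 2428 ppm (0.35 ± 0.07, adjusted p = 0.0287), and Gapdh, which encodes the NAD-reducing step, from 1037, 968 and 1030.0 ppm to 691, 663 and 699 ppm (-0.56 ± 0.07, adjusted p = 0.00254). No groups overlapped, and Ldha and Gapdh hold in all 6. Gapdh shares sequence with many pseudogenes, so its level is uncertain. Of 24 citric acid cycle genes, Mdh1, which encodes the cytosolic malate dehydrogenase of the NADH shuttle, fell from 337, 328 and 347 ppm to 141, 174 and 173 ppm (-1.05 ± 0.10, adjusted p = 0.000896), and Idh2, a mitochondrial isocitrate dehydrogenase gene, rose (log2 0.41, adjusted p = 0.0476).

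Some genes of lipid synthesis rose. Of 28 tested genes of cholesterol and fatty acid synthesis, 4 rose and none fell, with a median of 0.23. The share of all genes that rose was 2.73%. Acly, which encodes the ATP citrate lyase that supplies acetyl-CoA, was at 201, 254 and 223 ppm in the scramble libraries and 397, 485 and 483 ppm in the knockdown libraries (1.01 ± 0.11, adjusted p = 0.0019), and the sterol sensor gene Insig1 at 22.8, 19.2 and 21.9 ppm in the scramble libraries and 44.3, 46.6 and 41.9 ppm in the knockdown libraries (1.02 ± 0.15, adjusted p = 0.00645). Srebf2, the factor gene that controls cholesterol synthesis, went from 55.5, 48.2 and 54.5 ppm to 73.1, 80.8 and 77.9 ppm (0.54 ± 0.12, adjusted p = 0.0305). The groups did not overlap for these 3 genes, all 4 that rose have transcripts of at least 2 kb, and Acly and Insig1 hold in all 6, whereas 2 members rose without N1_1, N1_2 or N1_3. The sterol regulatory element TCACNCCAC, searched on both strands, was in 1.27% of promoter windows and in none of the 3 raised members that have one.

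Antioxidant genes fell more often than they rose. Of 30 tested, 6 fell and 1 rose, with a median of -0.13, beside 2.18% of all genes lower and 2.73% higher. The glutathione transferase genes Gstm1, at 79.6, 74.9 and 67.7 ppm in the scramble libraries and 24.6, 24 and 29.8 ppm in the knockdown libraries (-1.47 ± 0.14, adjusted p = 0.000981), and Gstm5, at 353, 417 and 348 ppm in the scramble libraries and 210.1, 177 and 217 ppm in the knockdown libraries (-0.89 ± 0.11, adjusted p = 0.00286), hold in all 6, but paralogs of this family are similar enough that their reads may be split between copies. Gclm, a subunit gene of the enzyme that limits glutathione synthesis, went from 100.4, 115 and 91.2 ppm to 63.7, 59 and 43 ppm (-0.89 ± 0.16, adjusted p = 0.016), and Gpx8, a peroxidase gene, from 39.3, 46.8 and 28.9 ppm to 15.2, 19 and 16.4 ppm (-1.12 ± 0.21, adjusted p = 0.0172). Gstp1 (log2 -0.38, adjusted p = 0.0276) and Prdx4 (log2 -0.49, adjusted p = 0.0495) fell by less. Sod2, which encodes the mitochondrial superoxide dismutase, rose from 69.7, 75.2 and 76.7 ppm to 106, 119.8 and 111 ppm (0.59 ± 0.10, adjusted p = 0.0132). The list holds many short genes: of its 15 members of at least 2 kb, 1 rose and 1 fell, with a median of 0.01. Without C2, N1_2 or N1_3, 2 members fell. The core TGACNNNGC of the antioxidant response element was in 2 of the 6 members that fell, Gclm and Gstm5, and in 13% of all windows.

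Some transcripts of the mitochondrial genome fell. Of 13 mRNAs, 4 fell and none rose, with a median of -0.41, beside 2.18% of all genes lower. None of the 13 has a transcript of at least 2 kb. The complex I subunit mt-Nd1 was at 3755, 3064 and 3077 ppm in the scramble libraries and 2360.0, 2153 and 2323 ppm in the knockdown libraries (-0.53 ± 0.09, adjusted p = 0.0118), and the cytochrome oxidase subunit mt-Co2 at 5545, 4509 and 4275 ppm in the scramble libraries and 3420.2, 2989 and 3089 ppm in the knockdown libraries (-0.59 ± 0.10, adjusted p = 0.0126). Library C1, which was the highest for both, also had the largest mitochondrial share. The count ranged from 0 to 5 with each library left out. Of 77 nuclear respiratory chain genes, 5 (6.49%) fell and none rose, with a median of -0.02, beside 2.18% of all genes lower. Their median transcript is 1141 bases, and 6.55% of coding genes of 1 to 2 kb at 5 ppm or more fell, a similar share. Cox5a, a cytochrome oxidase subunit gene, stood out at 611, 655 and 589.5 ppm in the scramble libraries and 258, 247 and 239.7 ppm in the knockdown libraries, 2.49-fold lower (-1.31 ± 0.08, adjusted p = 0.000233), and the complex I subunit gene Ndufb9 went from 1062, 1119 and 957 ppm to 698, 661 and 658 ppm (-0.63 ± 0.08, adjusted p = 0.00286). Both hold in all 6, while 2 members fell without N1_2 or N1_3 and 3 without C2. None of the 18 genes of this list with transcripts of at least 2 kb passed.

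Of 79 cytosolic ribosomal protein genes, 75 had a negative fold change, 11 fell and none rose, with a median of -0.24. The share of all genes that fell was 2.18%. Rpl27a was at 84.2, 91.5 and 84.1 ppm in the scramble libraries and 35.2, 35.4 and 37 ppm in the knockdown libraries (-1.25 ± 0.11, adjusted p = 0.000767), and Rps2 at 213, 228 and 195 ppm in the scramble libraries and 110.5, 92.5 and 90.7 ppm in the knockdown libraries (-1.11 ± 0.11, adjusted p = 0.00107). The other 9 that fell had log2 fold changes between -0.60 and -0.34. Ribosomal protein genes are short and have many processed pseudogenes, so their levels are uncertain. The median transcript of the list is 1094 bases, and 2 of its 13 members of at least 2 kb fell. Without N1_2 or N1_3, 3 members fell.

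Of 77 mitochondrial ribosomal protein genes 5 (6.49%) fell, among them Mrpl13 (log2 -1.21, adjusted p = 0.00596), beside 2.18% of all genes lower. Their median transcript is 1849 bases, and 6.55% of coding genes of 1 to 2 kb at 5 ppm or more fell, a similar share. The median of the list was -0.03, and 3 fell without N1_2 or N1_3. Of its 36 members of at least 2 kb, 3 fell. Of 46 proteasome genes 5 fell and 2 rose, with a median of 0.06, beside 2.18% of all genes lower and 2.73% higher. Of the 17 proteasome genes with transcripts of at least 2 kb, 1 fell and 1 rose. Only 1 proteasome gene fell without N1_2, 2 without N1_3 or C2, and 3 without C3 or N1_1. Psmd8, a subunit gene of the proteasome cap, was at 450.0, 461 and 444 ppm in the scramble libraries and 211, 177 and 161 ppm in the knockdown libraries (-1.31 ± 0.10, adjusted p = 0.00048), whereas Psmd2, another cap subunit gene, was at 179.6, 198 and 216 ppm in the scramble libraries and 329, 318 and 301 ppm in the knockdown libraries (0.68 ± 0.09, adjusted p = 0.00432). Subunits of one particle thus moved in opposite directions, and both hold in all 6.

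Heavy and light chain genes of class I antigen presentation fell. Of 19 tested, 3 fell and none rose, with a median of -0.45, beside 2.18% of all genes lower. The heavy chain gene H2-D1 was at 186, 174 and 208 ppm in the scramble libraries and 55.1, 71 and 72 ppm in the knockdown libraries (-1.51 ± 0.13, adjusted p = 0.000661), and its partner B2m, which encodes beta-2 microglobulin, at 133, 138 and 122 ppm in the scramble libraries and 39.7, 53.5 and 49.4 ppm in the knockdown libraries (-1.45 ± 0.13, adjusted p = 0.000767). H2-K1, a second heavy chain gene, went from 24.8, 42.6 and 40.4 ppm to 16.9, 12.6 and 13.6 ppm (-1.24 ± 0.24, adjusted p = 0.0198). The groups did not overlap and H2-D1 and B2m hold in all 6. H2-D1 and H2-K1 are near-identical over long stretches, so reads may be split between them, and of the 13 members of at least 2 kb 1 fell, with a median of -0.08. Interferon response genes did not move with them: of 22 tested, only Irf5 passed, and it rose, from 19.8 ± 4.38 to 71.7 ± 3.35 ppm (1.83 ± 0.18, adjusted p = 0.000981). Irf5 encodes an interferon regulatory factor and holds in all 6.

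Stress and injury genes changed singly. Gal (ENSMUSG00000024907.6, chromosome 19, 3409915 to 3414544, minus strand), which encodes the neuropeptide galanin and is induced in injured neurons, was listed at 0.104, 0 and 0.294 ppm in the scramble libraries and was at 14.9, 13.7 and 23.2 ppm in the knockdown libraries (log2 fold change 3.98 ± 0.38, adjusted p = 0.000973). It had the largest rise of the genes named and was called by limma without the trend as well (adjusted p = 0.0286). Gal passed the filter of 1 ppm only through the 3 knockdown libraries, where it was high, so its p-values are descriptive. With a knockdown library left out it no longer reached 1 ppm in 3 libraries and was not tested. No other gene of the 19 on that list passed, and the list's median was -0.17. None of its 6 members of at least 2 kb passed. Of 28 genes of the unfolded protein and integrated stress responses, the calnexin gene Canx (log2 0.68, adjusted p = 0.0127) and the factor gene Xbp1 (log2 0.84, adjusted p = 0.0134) rose and the chaperone gene Sdf2l1 fell (log2 -1.06, adjusted p = 0.0353), with a median of 0.07. Of 17 immediate early genes, Dusp1 (log2 1.00, adjusted p = 0.0115) and Btg2 rose, and Ier5, from 67.7, 71.9 and 72.7 ppm to 33.8, 37.3 and 36.1 ppm (-0.97 ± 0.12, adjusted p = 0.0029), and Ier2 (log2 -0.71, adjusted p = 0.0033) fell. Of 19 heat shock genes 1 passed, the mitochondrial chaperone gene Hspa9, which rose (log2 0.46, adjusted p = 0.023).

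Some genes of the lysosome, of synaptic vesicles and of axon guidance passed. Of 34 genes of autophagy and the lysosome, 4 rose and 1 fell, with a median of 0.04, beside 2.73% of all genes higher and 2.18% lower. Psap, which encodes the precursor of the saposins, was at 201, 200.1 and 209.6 ppm in the scramble libraries and 332, 313 and 299.9 ppm in the knockdown libraries (0.63 ± 0.08, adjusted p = 0.0033), and the autophagy receptor gene Sqstm1 at 514, 484 and 522 ppm in the scramble libraries and 727, 685 and 678 ppm in the knockdown libraries (0.46 ± 0.07, adjusted p = 0.00853). Both hold in all 6. Map1lc3b (log2 0.41, adjusted p = 0.0133) and Lamp1 (log2 0.39, adjusted p = 0.0194) also rose, and Laptm4b fell (log2 -0.49, adjusted p = 0.0116). Without N1_2 or N1_3, 2 members rose.

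Of 32 synaptic vesicle genes, 4 rose and 1 fell, with a median of 0.05, beside 2.73% of all genes higher and 2.18% lower. The vesicle gene Sv2b went from 106, 124 and 143 ppm to 205, 210.1 and 203 ppm (0.73 ± 0.11, adjusted p = 0.00853), and the SNARE gene Snap25 from 482, 493 and 464 ppm to 705, 672 and 623 ppm (0.47 ± 0.08, adjusted p = 0.00925). Cplx2 (log2 0.87, adjusted p = 0.0115) and Syp (log2 0.36, adjusted p = 0.0152) rose, whereas Cplx3, the complexin gene of ribbon synapses, fell (log2 -0.41, adjusted p = 0.0161). Only 1 of these genes rose and none fell without N1_2, and 2 rose and none fell without N1_3. Of 46 axon guidance genes, 3 rose and none fell, beside 2.73% of all genes higher and 2.18% lower. Of the 46, however, 32 had a negative fold change, and the median was -0.13. At an unadjusted p under 0.05, 5 were higher and 8 lower. Those that rose were the semaphorin gene Sema3f, from 171, 162 and 193 ppm to 269.8, 359.6 and 366 ppm (0.91 ± 0.13, adjusted p = 0.00533), the netrin receptor gene Unc5a (log2 1.61, adjusted p = 0.0342) and the plexin gene Plxnb2 (log2 0.67, adjusted p = 0.0485), and 1 gene of the list rose without N1_2 or N1_3.

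Among 20 genes that cause Leber congenital amaurosis, 4 passed, beside 4.92% of all genes. The 4 include Nmnat1, the target of the hairpin. Crx and Impdh1 rose, the latter, which encodes an enzyme of guanine nucleotide synthesis that uses NAD, from 266, 268 and 263 ppm to 305, 409 and 421 ppm (0.50 ± 0.12, adjusted p = 0.0494). Nmnat1 and Iqcb1, a ciliary gene, fell, the latter from 95.6, 71 and 84.8 ppm to 55.3, 53.9 and 49.1 ppm (-0.65 ± 0.14, adjusted p = 0.0279). None of the 20 passed without N1_2 or without N1_3, 1 passed without N1_1, and 2 passed without any one scramble library. None of 32 genes of intraflagellar transport and the BBSome passed by limma, with 6 higher and 2 lower at an unadjusted p under 0.05. With a filter of 5 ppm 2 of them rose, and with array weights 1. Of 23 genes that handle retinoids, Rlbp1 and Crabp1 fell and the receptor gene Rxra rose (log2 1.08, adjusted p = 0.0339). Crabp1, which encodes a retinoic acid-binding protein, was at 119, 116 and 127 ppm in the scramble libraries and 33.4, 36.8 and 50 ppm in the knockdown libraries (-1.58 ± 0.15, adjusted p = 0.000986), and it holds in all 6.

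Further genes had changes as large as those above. Lmo2, which encodes a LIM domain protein of haematopoietic transcription complexes, was at 23.6, 11.4 and 15.3 ppm in the scramble libraries and 107, 90.1 and 104 ppm in the knockdown libraries (2.57 ± 0.23, adjusted p = 0.000767), and the matrix metalloproteinase gene Mmp2 at 23.7, 15.7 and 17.5 ppm in the scramble libraries and 110.4, 102 and 93.1 ppm in the knockdown libraries (2.38 ± 0.17, adjusted p = 0.000318). Mmp2 was the only one of 30 genes of metalloproteinases and their inhibitors to pass. Tuba1c, a tubulin gene, went from 9.90, 17.4 and 10.9 ppm to 59.5, 64.8 and 61.3 ppm (2.23 ± 0.21, adjusted p = 0.000896), and its reads may be shared with close paralogs. The lowest knockdown library exceeded the highest scramble library 3.82-fold for Lmo2, 3.92-fold for Mmp2 and 3.42-fold for Tuba1c.

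Lrrc38 (log2 1.99, adjusted p = 0.00549), Fam78b (log2 1.91, adjusted p = 0.00286), B4galt5 (log2 1.96, adjusted p = 0.0168), Asap3 (log2 2.03, adjusted p = 0.0215) and Sfrp4 (log2 1.86, adjusted p = 0.037) also rose, from means of 8.23 ppm or less. Cwc22, a splicing factor gene with near-identical copies in the mouse genome and hence uncertain, had log2 1.88, adjusted p = 0.000344. At higher levels, Mbp, which encodes myelin basic protein, went from 42.9, 31.9 and 35.1 ppm to 109, 117 and 108 ppm (1.58 ± 0.13, adjusted p = 0.000661), and the guanine exchange factor gene Ralgds from 169.6, 192 and 214 ppm to 454, 501 and 501 ppm (1.34 ± 0.10, adjusted p = 0.000356). Kcne1l (log2 1.37, adjusted p = 0.00031), the AMP deaminase gene Ampd2 (log2 1.36, adjusted p = 0.000661) and Zfp365 (log2 1.22, adjusted p = 0.00133) rose as well.

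Among the genes that fell, Slc1a6, which encodes a glutamate transporter, was at 41.4, 44.3 and 39.5 ppm in the scramble libraries and 3.75, 6.14 and 6.35 ppm in the knockdown libraries (-2.76 ± 0.24, adjusted p = 0.000661), with 6.22-fold between the nearest libraries. Ret, the receptor gene for GDNF family ligands, went from 22.2, 27.6 and 29.7 ppm to 5.55, 2.72 and 6.18 ppm (-2.29 ± 0.31, adjusted p = 0.00388), and Ptprt, a receptor phosphatase gene, from 21.8, 21.6 and 28.5 ppm to 1.56, 8.93 and 7.17 ppm (-2.06 ± 0.47, adjusted p = 0.0378). Lypd1 (log2 -2.36, adjusted p = 0.0211), Dnase1l1 (log2 -2.34, adjusted p = 0.0382), Krt73 (log2 -2.13, adjusted p = 0.0166) and Prodh2 (log2 -2.06, adjusted p = 0.0497) fell at lower levels. Among abundant genes the homeobox gene Hmx1 went from 194, 142 and 181 ppm to 52.5, 69.9 and 73.1 ppm (-1.39 ± 0.16, adjusted p = 0.00207), Tmem258 from 482, 456 and 442 ppm to 224, 181 and 155 ppm (-1.31 ± 0.12, adjusted p = 0.000899) and Reg2 from 322, 134 and 167 ppm to 60.5, 86.4 and 79.7 ppm (-1.36 ± 0.28, adjusted p = 0.0267), the last with a single high scramble library.

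The genes called in the knockdown were then read in the separate libraries of Nmnat1 overexpression and of its empty vector, 3 each, electroporated and cultured in the same way, which share no library with the knockdown comparison. Nmnat1 was at 22.6, 18.7 and 21.3 ppm with the empty vector and 27832, 15347 and 14797 ppm with Nmnat1 overexpression. Overexpression gave 32 called genes of 18121 (0.177%), 25 higher and 7 lower. Of the 1011 knockdown calls tested there, 20 (1.98%) were among these 32, which is 62.5% of the 32. Nmnat1 itself was 1 of them, 18 others moved in the opposite direction, and Rtn1, a reticulon gene, rose in both (0.33 ± 0.08, adjusted p = 0.0414 with knockdown, and 0.61 ± 0.08, adjusted p = 0.0441 with overexpression).

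Of the 18, 3 were on the amacrine list. Calb2 was at 47.3, 34.8 and 36.8 ppm with the empty vector and 89.3, 132 and 127 ppm with Nmnat1 overexpression (1.52 ± 0.17, adjusted p = 0.0196). Nhlh2 was at 36.4, 29.2 and 25 ppm with the empty vector and 81.4, 116 and 115 ppm with Nmnat1 overexpression (1.75 ± 0.18, adjusted p = 0.0137), and Prdm13 at 57.4, 53.9 and 48 ppm with the empty vector and 107, 183 and 191 ppm with Nmnat1 overexpression (1.53 ± 0.21, adjusted p = 0.0441). The groups did not overlap, and these genes, which fell with the hairpin, were 2.93-fold, 3.45-fold and 3.02-fold higher with the overexpression plasmid. Their log2 fold changes stayed between 1.38 and 1.92 with single libraries left out, but Calb2, Nhlh2 and Prdm13 did not pass without the second or the third library of either group (adjusted p 0.0715 to 0.233), and Prdm13 did not pass without the first empty-vector library either (0.115). Of the list of 25, 23 were tested there, 3 rose and none fell, 20 had a positive fold change and the median was 1.17. All 7 members that fell in the knockdown had positive values, from 1.20 to 1.77, with Ptf1a at 1.77 ± 0.33, adjusted p = 0.078 and Pax6 at 1.25 ± 0.19, adjusted p = 0.0557.

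The other genes called in opposite directions were Ret (1.40 with overexpression), Ptprt (1.54), Gria4 (1.41), Ier5 (1.21), Plk2 (1.40), the homeobox gene Six2 (1.45), the cytokine signalling inhibitor gene Socs2 (1.22), the intermediate filament gene Ina (1.13), the tubulin gene Tubb2a (1.23), the protocadherin gene Pcdh8 (1.58), the synaptic scaffold gene Dlg2 (1.03), Zfp804a (1.34), Lhfp (1.61) and Klhl35 (1.35), which fell with knockdown. Paqr4 rose with knockdown (log2 0.61, adjusted p = 0.00715) and fell with overexpression (-0.66).

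**Figure D5:**
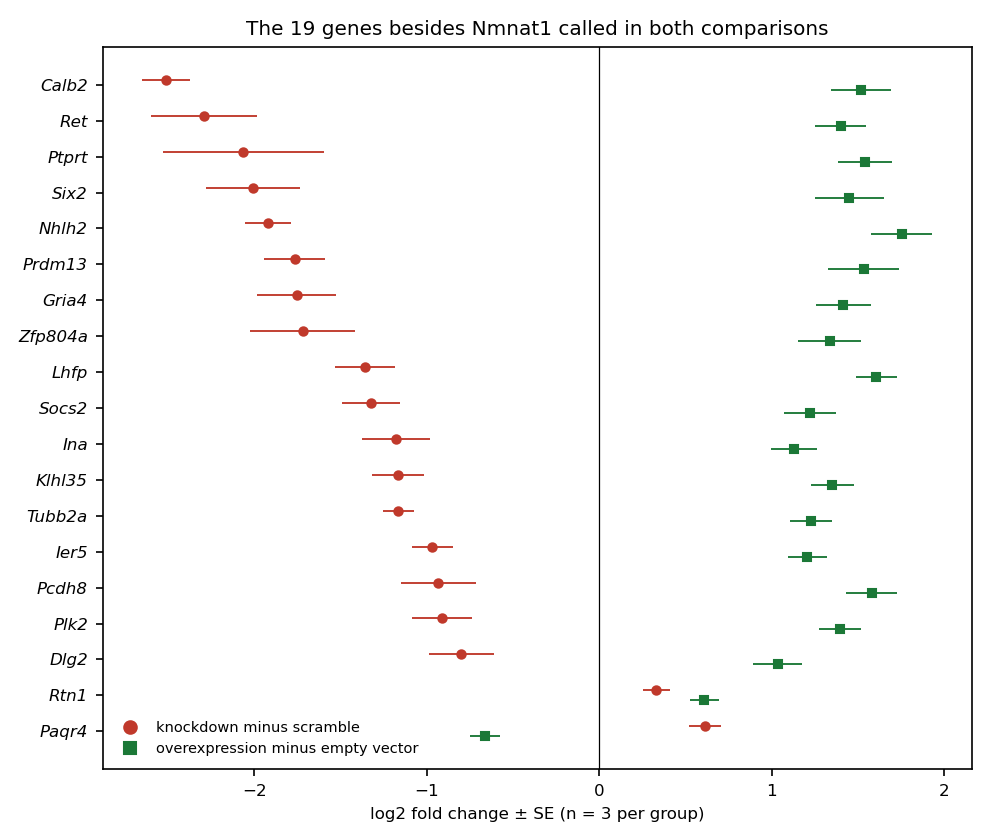
Log2 fold change ± SE (horizontal axis, n = 3 per group) of the 19 genes besides Nmnat1 called in both comparisons, for Nmnat1 knockdown minus scramble (red circles) and Nmnat1 overexpression minus empty vector (green squares). For 18 genes the 2 values lie on opposite sides of 0, and for Rtn1 both are positive.

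Across all genes called in the knockdown, those above included, the 2 comparisons were less alike. Of the 563 genes that rose with knockdown and were tested with overexpression, 65.4% had a negative value there, beside 54.6% of all genes, and their median was -0.10 beside -0.03. Of the 448 that fell, 58.5% had a positive value, beside 45.4% of all, with a median of 0.08. The p53 targets that rose had a median of -0.12 with overexpression, from -0.50 to 0.22, none called. The whole p53 list, with 28 tested, had a median of -0.16. The 10 Müller genes that fell had a median of 0.24, 7 positive and none called. In the whole Müller list 16 of 22 were positive, with a median of 0.29. The 7 progenitor genes that fell were all positive, with a median of 0.28 and none called. In the whole progenitor list 19 of 24 were positive, with a median of 0.18. The 6 photoreceptor fate genes that rose had a median of -0.47, 5 negative and none called. In that whole list 12 of 13 were negative, with a median of -0.31. These leanings were thus not particular to the members called in the knockdown. The rod list had 2 of 32 genes lower and a median of -0.75.

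The overexpression libraries numbered 1 in each group stood apart from the others. Eif2s3y, on the Y chromosome, measured 28.9, 118 and 119 ppm with the empty vector and 15.9, 122 and 132 ppm with Nmnat1 overexpression, lowest in the library numbered 1 of either group. With both of these libraries left out, an alternative chosen after seeing the data that leaves 2 libraries a group, 2053 of 15676 genes (13.1%) passed and 268 of the knockdown genes were called in the opposite direction, against 110 in the same direction. In that fit 14 of 22 amacrine genes rose and 1 fell with a median of 1.36, 11 of 22 Müller genes rose and 2 fell, 8 of 24 progenitor genes rose and 1 fell, and 27 of 32 rod genes fell and none rose. With single libraries left out the opposite calls numbered from 1, Nmnat1 itself, without the third empty-vector library, to 210, without the first overexpression library. They were 11 and 4 without the first and the second empty-vector library and 2 without the second or the third overexpression library, so the number of shared genes depends on which libraries enter.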

How the data were processed

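The signal values were computed by the authors and deposited as TPM; the submitters' processing notes list Salmon 0.11.3, sleuth 0.30.0 and GRCm38.p6 with no role. The columns sum to more than 1000000, so the deposited signal was rescaled to parts per 1000000 (ppm) of each column. Low values in 77.1% to 82.8% of cases fell within 0.1 of a whole read (20.0% by chance), too few for a count test. The incomplete last line was dropped, and 3 sample columns of other groups in each table were not used. The chemistry does not mark the strand, so antisense and overlapping genes cannot be told apart.

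Genes at 1 ppm or more in at least 3 of the 6 libraries were fitted as log2(ppm + 1) in limma 3.58.1 (R 4.3.3) using moderated variances that follow a mean-variance trend. Each two-sided test passed at a Benjamini-Hochberg adjusted p under 0.05. On simulated data, 0, 112 and 189 of 200 genes changed by log2 0.5, 1 and 2 were recovered among 20933. The changed genes were drawn only from the more abundant ones, so recovery of rarer genes was not measured. With only 200 genes changed, the simulation does not give the recovery in the data, where calls were as small as log2 0.29. Column names show the group, and their final number was not tied to a numbered sample. Gene positions come from GENCODE M21 (34345 identifiers, 99.9%, matched) and promoters from RefSeq. The members and the 51 gene lists were chosen with earlier results of these data known. Named genes were Nmnat1 to Nmnat3; the 12 largest rises and falls at 5 ppm or more without overlap between groups, and 8 at 100 ppm or more, clone names left out; and, for each list, called members and the 6 of smallest p. Some genes that the rule names are not reported here. Alternatives covered the pseudocount, filter, scaling, trend, array weights, each library left out and, added after seeing the data, a replicate block by column number. Figures were drawn with matplotlib 3.10.9.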

Additional observations from a re-analysis of the deposited data

How the results depend on the processing

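The 165 named genes past the threshold kept their direction in all alternatives that tested them. They were called in these same libraries, so a reversal was unlikely from the start. Of them, 151 passed with a pseudocount of 0.1, 163 with 5, 126 without a filter, 157 with median-of-ratios scaling, 155 with quantile normalization, 161 without mitochondrial genes in the column sum, 163 with array weights, 139 with a replicate block and 77 to 145 with a library left out, but 2 without the mean-variance trend (median adjusted p 0.108, largest 0.338). Without the trend 4 genes passed, 3 higher and 1 lower, and Nmnat1 had -1.18 with an adjusted p of 0.0638; the cause was not tested. With a library left out, 338 to 975 genes passed, 152 to 514 higher and 180 to 461 lower, and Nmnat1 had -1.26 to -1.11 (adjusted p 0.0414 to 0.0731). The total was 904 with a pseudocount of 0.1 and 1046 with 5, 695 without a filter and 1455 with a filter of 5 ppm, and 976, 1028 and 1322 with median-of-ratios scaling, quantile normalization and array weights.

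Medians near 0 changed sign in places, and the cause was not tested. With a filter of 5 ppm the G1 list went to 0.06 and the cone list to 0.10. With a library left out the G1 list ranged from -0.30 to 0.06, cone from -0.25 to 0.10, bipolar from -0.21 to 0.01, ganglion from -0.18 to 0.03, pigment epithelium from -0.20 to 0.33, lens from -0.44 to 0.20 and interferon from -0.20 to 0.02. With that filter no lens gene was left, the amacrine median was -1.42, and with pseudocounts of 0.1 and 5 it was -1.30 and -0.36.

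The number that ends a knockdown column name is not tied to a numbered sample. A fit with that number as a replicate block, added after seeing the data, gave 805 genes, 442 higher and 363 lower, of which 741 were among the 1029, and an adjusted p of 0.046 for Nmnat1. Same-numbered knockdown and scramble libraries correlated at 0.0267, -0.0106 and 0.0361, under the 0.1 asked of every pair. In the overexpression libraries, which the labels number, a replicate block gave 106 calls in place of 32 and 38 opposite calls in place of 19. Same-numbered libraries there correlated at 0.237, 0.172 and 0.0709, and the third overexpression library correlated best with the second empty-vector library (0.0826), so the numbers were not taken to pair the libraries, though those numbered 1 stood apart together. With a library left out there were 1 to 210 opposite calls, and with both libraries numbered 1 left out 268.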
